A study of Mus musculus with 2 samples.

Results

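Mir148a, Mir148b and Mir152 are the 3 mouse genes whose main products, miR-148a-3p, miR-148b-3p and miR-152-3p, share the seed CAGUGCA. They were selected on the share of 18 nt reads of miR-148b-3p in the DMSO library, from 1005 hairpins of the RefSeq miRNA table, and that share is given as a description only. The small RNAs came from J1 cells, an embryonic stem cell line of the 129S4/SvJae mouse strain. Both cultures were kept off feeders, on gelatin, in serum replacement medium with 1000 U/mL LIF, the cytokine that holds these cells in self-renewal, and were given either the solvent DMSO or 1 µM SC1 for 6 h. SC1, also called pluripotin, is a synthetic compound that inhibits both ERK1 and RasGAP. The study set out to find miRNAs that SC1 regulates. There was 1 library per condition and thus no replicate. The intervals below (exact Clopper-Pearson, 95%) cover counting error only, since no molecular identifiers were recorded and PCR copies count as separate reads. Beside a count of 0 the limit given is that of 3 counts.

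A miRNA is cut from a hairpin by Drosha and then Dicer, which leave a short duplex of a 5p and a 3p strand, and one strand is loaded into an Argonaute protein. The seed, bases 2 to 8, chooses the messenger RNAs that are silenced, so miRNAs with the same seed are counted as one family. The 3′ end is not part of the seed, and enzymes can shorten it or add untemplated U or A to it. This family is known for targeting the DNA methyltransferases Dnmt1 and Dnmt3b, and miR-148b and miR-152 lie in introns of paralogous genes, Copz1 and Copz2, which encode zeta subunits of the COPI vesicle coat.

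The lists cannot be set against each other. The deposited DMSO list (18870345 reads) ran from 18 to 44 nt and the SC1 list (1275599 reads) from 3 to 17 nt, with no length in common, so no effect of SC1 on a member can be given. In the DMSO library 1889028 reads of 18 to 26 nt (10.01% of all) were assigned to mature miRNAs, the base for RPM (reads per 1000000 such reads) below. The miR-290-295 cluster, which marks mouse embryonic stem cells, took 30.0% of them, and miR-302 and miR-367, also of pluripotent cells, 0.0125%. No reads were assigned to miR-291a, miR-292a-3p or miR-302a-3p. Whether the RefSeq names used here include them was not checked, so both shares may be too low. The list of names is not complete, since miR-143-3p had no entry in it. The RPM base, the ranks and the shares over arms below cover only names with assigned reads, so miRNAs without an entry are missing from them. RNA was from whole cultures, in which fewer cells with a miRNA and less of it per cell cannot be told apart.

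The hairpins show where the reads could come from. They are printed 5′ to 3′ from RefSeq (GRCm38.p6), with the annotated 5p and 3p strands in capitals, the 5p strand first.

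Mir148a: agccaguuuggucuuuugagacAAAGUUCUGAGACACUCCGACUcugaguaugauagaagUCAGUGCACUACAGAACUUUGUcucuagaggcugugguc
Mir148b: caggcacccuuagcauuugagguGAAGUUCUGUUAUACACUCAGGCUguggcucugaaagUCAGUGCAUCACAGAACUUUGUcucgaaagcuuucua
Mir152: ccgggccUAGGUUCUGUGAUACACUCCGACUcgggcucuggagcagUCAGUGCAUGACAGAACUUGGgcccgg

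Mir148a lies on the minus strand of chr6:51269812-51269910 and overlaps no other gene. Its nearest protein-coding genes are Nfe2l3, 162760 bases away, and Npvf, 615373 bases away on the other side. Mir148b lies on the plus strand of chr15:103285125-103285221, in an intron of Copz1 in 4 annotated transcripts. Mir152 lies on the plus strand of chr11:96850393-96850465, in an intron of Copz2 in 3 annotated transcripts. No exon of the surrounding gene covers either hairpin, and no member tag of 15 nt or more matched another GENCODE M21 transcript or another RefSeq hairpin.

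The mature 3p strands are printed with the seed in capitals, since they differ from each other at few bases and those bases decide which gene a read is counted for.

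miR-148a-3p: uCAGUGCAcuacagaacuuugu
miR-148b-3p: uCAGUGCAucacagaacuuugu
miR-152-3p: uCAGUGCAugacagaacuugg

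Counted from the 5′ end, miR-148a-3p and miR-148b-3p differ by C9U and U10C and are identical over bases 11 to 22. miR-148b-3p and miR-152-3p differ by C10G and U20G, and miR-148a-3p and miR-152-3p by C9U, U10G and U20G. An 18 nt read therefore still names its gene, by 1 base for the pair of miR-148b and miR-152 and by 2 bases for the other pairs. In the DMSO list 2140 reads of 18 to 26 nt began with the first 18 nt of miR-152-3p, and 7 reads differed from these at 1 base without matching another member, 2 of them at base 10. A misread of that base from G to C would be counted as miR-148b-3p and cannot be seen. The share of reads with 1 such difference was 0.326% for miR-152-3p. It was higher for miR-148b-3p (12 reads beside 1613, 0.738%) and for miR-148a-3p (17 beside 668, 2.48%). Of the RefSeq mature names, 3 carry the seed CAGUGCA, and they are the family. The 5p strands do not share it: miR-148a-5p and miR-148b-5p have AAGUUCU, and miR-152-5p has AGGUUCU.

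The family was a minor one in the DMSO library. Its 3 hairpins had 3673 exactly matching reads in 30 distinct tags, and the 3p strands took 0.19% of the reads assigned to mature miRNAs. miR-152-3p was at 786 RPM (1485 reads, interval 747 to 827), the 90th of 773 mature names. miR-148b-3p was at 770.2 RPM (1455 reads, interval 731 to 811) and was 93rd. miR-148a-3p was at 344 RPM (650 reads, interval 318 to 372) and was 132nd. The intervals of miR-152-3p and miR-148b-3p overlap, and miR-148a-3p lies below both. The overlap ended when reads with trailing untemplated A or T were counted too, at 1032 RPM for miR-152-3p (interval 988 to 1076) and 777 RPM for miR-148b-3p (interval 739.7 to 816.0). Reversed tags, a measure of chance matching, gave 0 reads on each hairpin.

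The size of the gap between miR-148b-3p and miR-148a-3p depended on which reads were counted, while miR-152-3p had the most reads in each of these counts. With exactly matching tags of 21 nt or more alone, miR-148b-3p had 583 reads (309 RPM, interval 284 to 335) and miR-148a-3p 569 reads (301 RPM, interval 277 to 327), so their intervals overlapped. miR-152-3p had 1410 reads of these lengths (746 RPM, interval 708 to 786). Tags of 18 to 20 nt held 872 of the exact reads of miR-148b-3p and 81 of those of miR-148a-3p. The 872 include the 18 nt reads for which miR-148b was chosen. With reads that carry added 3′ bases, described below, counted beside the tags of 21 nt or more, miR-148b-3p had 741 reads and miR-148a-3p 586.

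Nearly all reads came from the 3p strands. Of the Mir148b reads 5.21% (80 of 1535, interval 4.15 to 6.44) came from miR-148b-5p, at 42.3 RPM. Mir148a gave 3 reads of miR-148a-5p, 0.459% of its 653 reads (interval 0.0948 to 1.34). Mir152 gave 0 reads of miR-152-5p among 1485, which allows a share of up to 0.202%, or 1.59 RPM. Of the 3 hairpins, Mir148b had the highest 5p share, and its interval did not overlap those of the other two. No read of 18 to 44 nt lay in a loop, and no tag of 27 nt or more matched a member.

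The 5′ ends were sharp on the 3p strands. Reads began at the RefSeq start in 99.8% of cases for miR-148a-3p, in 99.9% for miR-148b-3p and in 99.7% for miR-152-3p, so the seed was the annotated one in nearly every read. miR-148b-5p was looser: 70 of its 80 reads began at the annotated G and 9 reads began 1 base later, which shifts its seed by 1 base.

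The 3′ ends set the members apart, and miR-148b-3p was split into several lengths. Its most frequent tag had 18 nt (632 reads), followed by the annotated 22 nt form (537 reads) and a 20 nt tag (199 reads). Tags of 21 nt had 45 reads, those of 19 nt 40 and those of 23 nt 1, all from the annotated start. Counts at 18, 20 and 22 nt were thus higher than at 19 and 21 nt. The deposited list begins at 18 nt, so whether counts went on rising below that length cannot be seen in it. The annotated sequence itself made up 36.9% of the reads.

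miR-148a-3p, with the same 12 bases at its 3′ end, had a single main length. Its annotated 22 nt form had 507 of 650 reads (78.0%), and 59 reads were of 18 nt. The other lengths from the annotated start were 32 reads at 23 nt, 30 at 21 nt, 20 at 20 nt and 1 at 19 nt. Here too the 18 nt tags had more reads than the 19 nt tags. Tags of 18 to 20 nt made up 12.5% of its reads (interval 10.02 to 15.2), against 59.9% (interval 57.4 to 62.5) for miR-148b-3p. Of the 872 such reads of miR-148b-3p, 633 had 18 nt. The family was chosen for that 18 nt share, so this contrast follows in part from the choice and is no finding.

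Among exact matches miR-152-3p was the most uniform in length. Its annotated 21 nt form had 1323 of 1485 reads (89.1%), and 87 reads had 22 nt, the next base of the hairpin included. From the annotated start, 37 reads were of 18 nt, 2 of 19 nt and 32 of 20 nt. In all 3 members the 18 nt tags had more reads than the 19 nt tags. With tailed reads counted, the most frequent length held 61.9% of the miR-152-3p reads (interval 59.8 to 63.9), 76.7% of those of miR-148a-3p (interval 73.3 to 79.9) and 39.2% of those of miR-148b-3p (interval 36.8 to 41.6), so miR-148a-3p was then the most uniform.

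**Figure D1:**
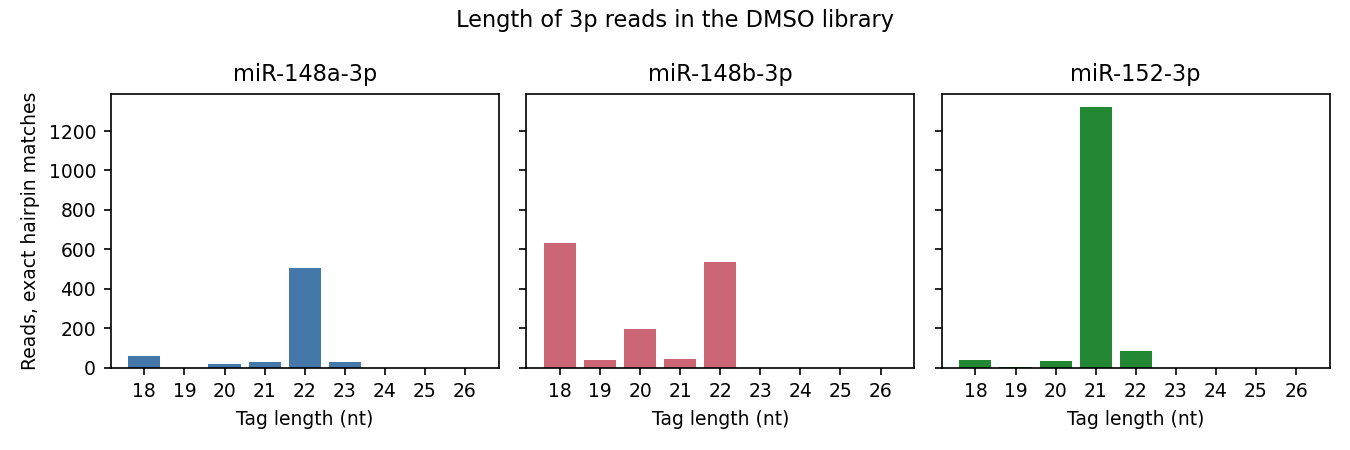
Reads of the 3 family 3p strands in the DMSO library that matched the hairpin exactly, by tag length in nt, 1 panel per miRNA on a shared linear axis. miR-148b-3p has columns of 633, 199 and 537 reads at 18, 20 and 22 nt, while miR-148a-3p is highest at 22 nt and miR-152-3p at 21 nt.

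The short tags that end at base 18 are printed with the bases that tell the genes apart in the same columns as above, as DNA letters from the list. They end inside the run that the members share.

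miR-148a-3p, 59 reads: tcagtgcactacagaact
miR-148b-3p, 632 reads: tcagtgcatcacagaact
miR-152-3p, 37 reads: tcagtgcatgacagaact

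The last base of these tags is a T that the hairpins also encode. A read trimmed to 17 nt and given an untemplated U would look the same, and these cases cannot be told apart. In all, 18 nt tags made up 43.5% of the miR-148b-3p reads (633 of 1455, interval 40.9 to 46.1). The share was 9.08% for miR-148a-3p (interval 6.98 to 11.6) and 2.63% for miR-152-3p (interval 1.87 to 3.57). These shares chose the family, and no test is given.

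Across the library, 18 nt forms were rare. Over the 246 mature arms with 100 reads or more the median 18 nt share was 0.286%, with quartiles of 0% and 1.44%, so all 3 members lie above the upper quartile. A share higher than that of miR-148b-3p was found in 6 arms, than that of miR-148a-3p in 17 and than that of miR-152-3p in 43. In 6 arms, 2.44% of those counted, 18 nt was the most frequent length, and miR-148b-3p is one of them. The values on either side of it were 45.1% for miR-6240 and 41.2% for miR-3473b. Tags shared between names were divided equally, which enters some of these shares. miR-27a-3p and miR-27b-3p, both above miR-148b-3p, had 1716.5 and 1717.5 reads of 18 nt. For miR-6240 there were 696 exact reads, against 8768 from its main start with tails counted.

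**Figure D2:**
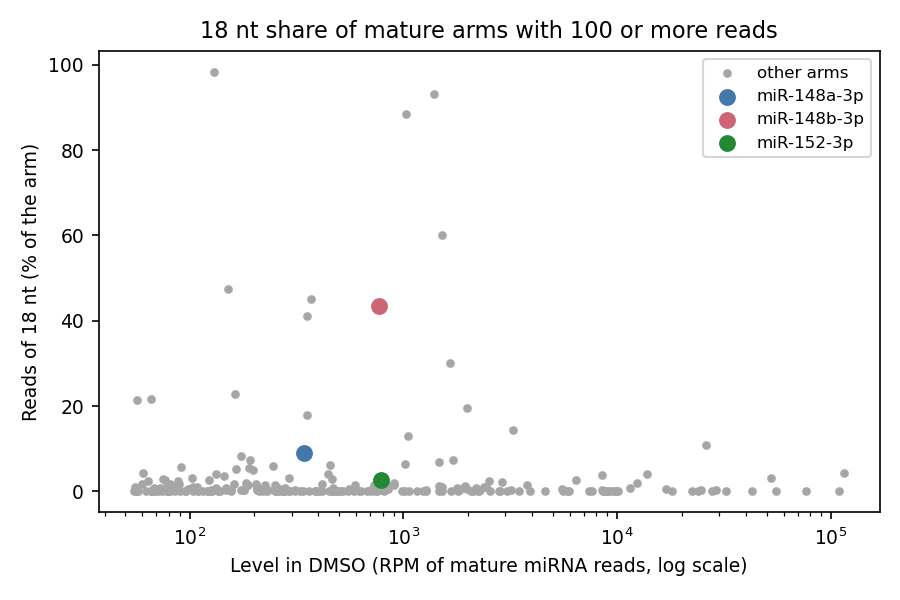
Share of 18 nt reads (percent of the arm's reads) against level (RPM, log scale) for the 246 mature arms with 100 or more reads in the DMSO library, 1 point per arm. miR-148b-3p stands at 43.5%, while miR-148a-3p at 9.08% and miR-152-3p at 2.63% lie close to the mass of arms near 0.

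Length profiles were compared with those of other miRNAs. Likeness was measured as the total variation distance between the shares of reads at each length from 18 to 26 nt, 0 for equal profiles and 1 for profiles with no length in common, over 143 other arms with 500 reads or more in the same library. The nearest to miR-148b-3p were miR-409-3p at 0.36 and miR-210-3p at 0.37, then miR-130a-3p at 0.408, let-7i-5p at 0.412 and miR-92b-3p at 0.414, with a median of 0.597 over all. miR-148a-3p was at 0.475 from it and miR-152-3p at 0.861. The 18 nt share for which miR-148b was chosen enters this distance, so a large distance follows in part from the choice and is no finding. By contrast miR-152-3p had near neighbours, miR-128-3p at 0.0251, miR-380-3p at 0.0284 and miR-369-3p at 0.0417. miR-148a-3p was nearest to miR-293-3p at 0.0729, followed by miR-665-3p and miR-130b-3p, both at 0.116. The measure compares lengths within 1 library only.

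Tails were counted next, because reads with added bases do not match a hairpin and were outside the values above. A tail was 1 to 3 untemplated bases behind at least 18 templated bases from the main start. The most frequent tailed tags of each member are printed with the tail in capitals.

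miR-152-3p, 526 reads: tcagtgcatgacagaacttggT
miR-152-3p, 57 reads: tcagtgcatgacagaacttggTT
miR-152-3p, 40 reads: tcagtgcatgacagaacttgggT
miR-148b-3p, 97 reads: tcagtgcatcacagaactttgtT
miR-148b-3p, 14 reads: tcagtgcatcacagaactttgtA
miR-148a-3p, 8 reads: tcagtgcactacagaactttgAA

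U tails were frequent on miR-152-3p. They made up 29.5% of its reads from the main start (630 of 2138, interval 27.5 to 31.4), and a single U on the 21 nt form was its second most frequent tag after the annotated one. On miR-148b-3p U tails made up 6.89% (111 of 1612, interval 5.70 to 8.23). On miR-148a-3p there was 1 read with a U tail among 666, 0.15% (interval 0.0038 to 0.834). The 3 intervals do not overlap. Over the 240 arms with 100 such reads or more the median was 1.55% and the upper quartile 5.20%. An added U is seen only where the hairpin does not encode T next, so these shares depend in part on each arm's own sequence. A higher U tail share than that of miR-152-3p was found in 8 arms, than that of miR-148b-3p in 51 and than that of miR-148a-3p in 201.

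**Figure D3:**
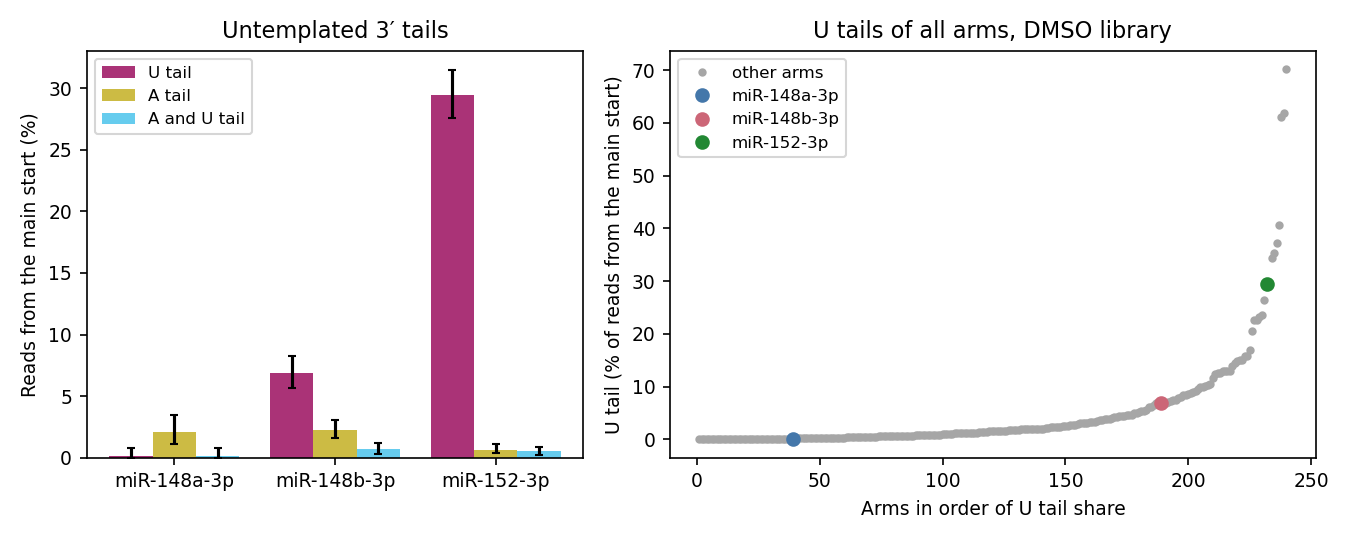
Left, share of reads from the main start (percent) with U, A or mixed A and U tails for the 3 family 3p strands, with exact 95% intervals for counting error. Right, U tail share of the 240 mature arms with 100 such reads or more, in rising order, with miR-152-3p at 29.5%, miR-148b-3p at 6.89% and miR-148a-3p at 0.15%.

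The U tails that could be told from templated bases sat mostly on the full-length ends. For miR-152-3p, 588 of the 1935 reads whose templated part ended at base 21 carried a U tail (30.4%, interval 28.3 to 32.5), and so did 42 of the 131 that ended at base 22 (32.1%, interval 24.2 to 40.8). For miR-148b-3p, 109 of the 680 reads that ended at base 22 carried one (16.03%, interval 13.4 to 19.01). Of the miR-148a-3p reads that ended there, 1 of 510 did (0.196%, interval 0.00496 to 1.09). miR-148a-3p and miR-148b-3p have the same bases from 11 to 22, and their hairpins go on with the same next bases, cuc, so the same tails could be seen in both.

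What followed base 22 therefore differed between these near-identical strands. Among reads with the 22 nt form alone, with the templated C or with a single U behind it, the C was present in 5.93% for miR-148a-3p (32 reads, interval 4.09 to 8.26) and in 0.157% for miR-148b-3p (1 read, interval 0.00399 to 0.874). The single U was present in 0.185% for miR-148a-3p (1 read, interval 0.00469 to 1.03) and in 15.3% for miR-148b-3p (97 reads, interval 12.6 to 18.3). In this library a minority of these miR-148a-3p reads were longer by the encoded base, and a minority of these miR-148b-3p reads by an added one. Most of them ended at base 22 in both (507 and 537 reads).

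Behind bases 18 and 19 the hairpins of miR-148a and miR-148b encode T, so a U added there reads as the next templated length and cannot be seen. The same holds for base 21 of both, where an added U gives the annotated 22 nt form. Of the 632 reads of miR-148b-3p that ended at base 18, 0 had an A tail, which allows a share of up to 0.475%.

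A tails were few. They made up 2.23% of the miR-148b-3p reads (36 of 1612, interval 1.57 to 3.08), 2.10% of the miR-148a-3p reads (14 of 666, interval 1.15 to 3.50) and 0.655% of the miR-152-3p reads (14 of 2138, interval 0.358 to 1.10), against a median of 2.75% over the 240 arms. Their share was highest behind base 21 of the pair that ends in GU, with 12 of 43 reads of miR-148a-3p (27.9%, interval 15.3 to 43.7) and 13 of 58 of miR-148b-3p (22.4%, interval 12.5 to 35.3). These intervals overlap, so the pair did not differ there beyond counting error. Reads that ended at base 21 and gained a U are not among the 43 and 58. By count, miR-148b-3p had more A tails behind base 22 (23 of 680 reads, 3.38%). On miR-148b-5p, 10 of 83 reads had an A tail (12.0%, interval 5.93 to 21.04) and 2 a U tail.

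**Figure D4:**
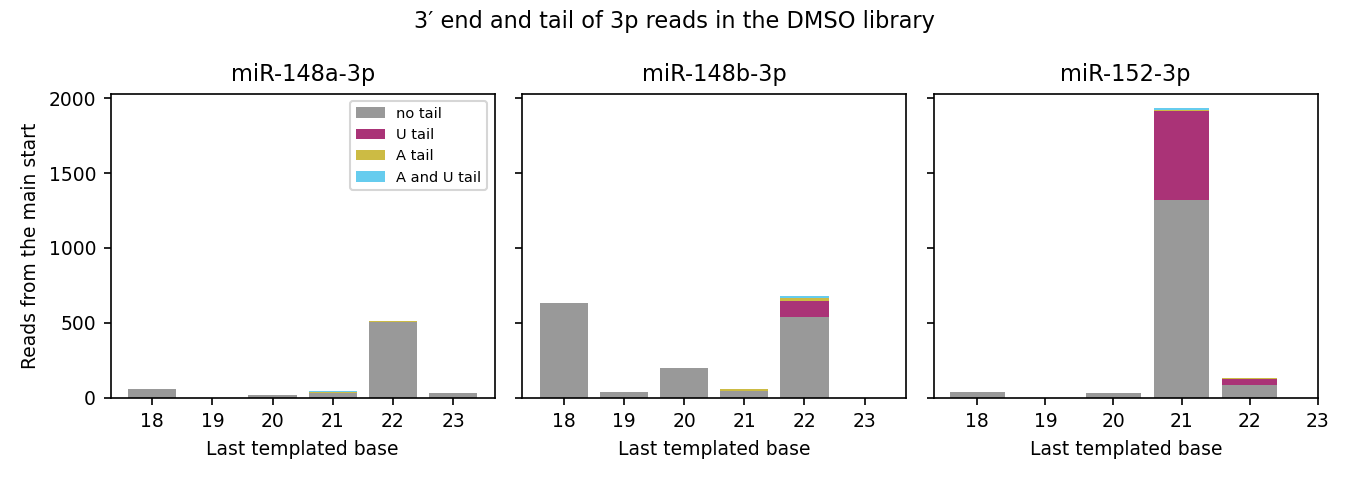
Reads of the 3 family 3p strands in the DMSO library by the last templated base, from the main start, stacked by tail (none, U, A, or A and U). Most visible U tails sit on base 21 and base 22 of miR-152-3p (588 and 42 reads). Others sit on base 22 of miR-148b-3p (109 reads), and miR-148a-3p has 1 such read.

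Other miRNAs reported to target DNA methyltransferases gave the setting of these levels. miR-101b-3p was at 26059 RPM and miR-101a-3p at 12437 RPM, miR-29a-3p at 3047 RPM and miR-342-3p at 1773 RPM, so 4 of the 7 analysed were above every member of the family. miR-29c-3p was at 259 RPM, miR-29b-3p at 108 RPM and miR-126a-3p at 12.7 RPM. The 18 nt share was 10.9% for miR-101b-3p (interval 10.6 to 11.2), whose most frequent length was 19 nt, 2.08% for miR-101a-3p (interval 1.90 to 2.27) and 0.98% or less for the other five. miR-143-3p had no entry among the RefSeq miRNAs used and was not analysed here.

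In the SC1 list the family was present as short tags. Tags of 15 to 17 nt that matched a member exactly had 1231 reads, 679 on Mir148b (55.2%, interval 52.3 to 58.0), 358 on Mir148a (29.1%, interval 26.6 to 31.7) and 194 on Mir152 (15.8%, interval 13.8 to 17.9). The order differed from that of the exact DMSO reads of all lengths, where the intervals of miR-152-3p and miR-148b-3p overlapped. It was the order of the exact DMSO reads of 18 to 20 nt. These were 872 for miR-148b-3p, 81 for miR-148a-3p and 74 for miR-152-3p, the last counts being close. The 872 include the 18 nt reads for which miR-148b was chosen. The length class and the treatment cannot be told apart here. Reversed tags gave 0 reads. All but 1 read, a 17 nt tag of Mir148a, came from the 3p strands, which leaves miR-148b-5p and miR-152-5p at 0 reads, with a limit of 3.

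The short tags also began at the annotated start in nearly every read. They come from another library, so their counts cannot be joined to the ladders of the DMSO list. miR-148b-3p had 245 reads at 17 nt, 294 at 16 nt and 140 at 15 nt. miR-148a-3p had 150 at 17 nt, 193 at 16 nt and 14 at 15 nt, and miR-152-3p had 79, 85 and 30. In each member the 16 nt tags had more reads than the 17 nt tags, narrowly so for miR-152-3p. All mature starts of the table together had 13069 reads at 17 nt, 20974 at 16 nt and 17765 at 15 nt. Of these, miR-148b-3p took 1.87% (interval 1.65 to 2.12), 1.40% (interval 1.25 to 1.57) and 0.788% (interval 0.663 to 0.929).

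**Figure D5:**
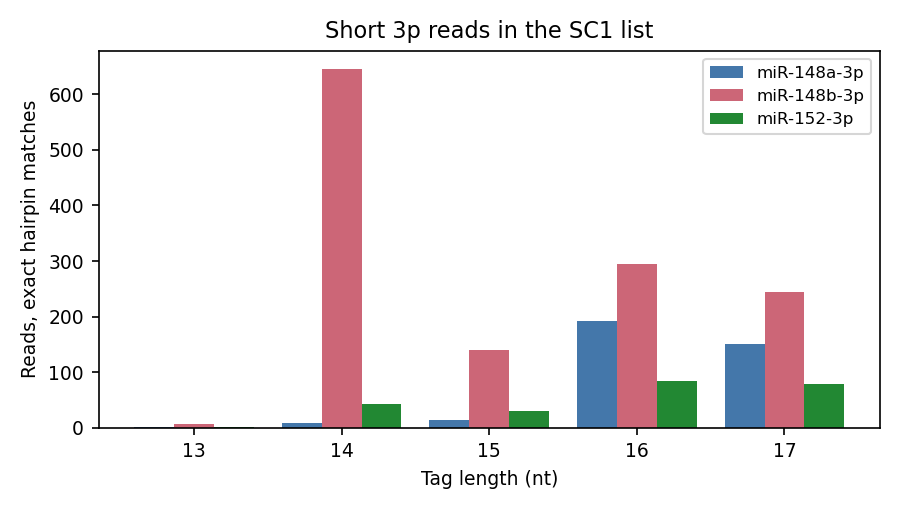
Reads in the SC1 list that matched the 3p side of a family hairpin exactly, by tag length in nt, with 3 bars per length for miR-148a-3p, miR-148b-3p and miR-152-3p. miR-148b-3p is highest at each length from 13 to 17 nt and has 646 reads at 14 nt, against 9 for miR-148a-3p and 42 for miR-152-3p.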

How the data were processed

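For each library the authors deposited sequence tags with raw read counts, and per the labels total RNA was used with standard Illumina libraries. The submitters' processing notes name the build mm9. Not given in the sources used here were the adapter, any trimming and any length filter. Coordinates are those of GRCm38 from RefSeq and GENCODE M21. The total line of the DMSO list was left out.

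DMSO tags of 18 to 26 nt and SC1 tags of 15 to 17 nt were matched exactly, in sense, to the hairpins. A tag was assigned to a mature name of the RefSeq table if it began within 2 nt of its start, and a tag of several names was divided equally among them. For the members any start on the arm was counted, arms being divided at the hairpin midpoint. Matches to other genome sequence were not searched. With 1 library per condition no test was run. The members and lists were chosen with earlier results of these data known. Named miRNAs are the members, the nearest 5 (miR-148b-3p) or 3 (others) by length profile, and the methyltransferase list. Others are named as stem cell markers or for their 18 nt share. The steps were tested on simulated data. Computation used scipy 1.17.1 and numpy 2.4.6 under Python 3.11.15, and figures were drawn with matplotlib 3.10.9. Alternatives were a minimum of 10 reads per tag, tags with other matches left out, trailing A or T removed, 1 start only, other end and length windows, and scaling to all reads.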

Additional observations from a re-analysis of the deposited data

Results flagged for a closer look

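SC1 tags of 13 and 14 nt lay outside the lengths analysed, and their reads on the family hairpins exceeded the limit of 3 counts. Mir148b had 653 such reads, Mir152 had 44 and Mir148a had 10, while reversed tags gave 0 reads on each. All of those on Mir148b and Mir148a, and the 2 reads of 13 nt on Mir152, also matched transcripts of other genes exactly. Reversed tags cannot tell which of these places a read came from, and other genome sequence was not searched. On Mir148b, 645 reads were 1 tag, the first 14 nt of miR-148b-3p, more than any of its tags of 15 to 17 nt.

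miR-148b-3p, 14 nt, 645 reads: tcagtgcatcacag

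Tags of 14 nt at its start made up 21.4% (646 of 3023, interval 19.9 to 22.9) of all 14 nt reads at the start of a mature miRNA, against 1.87% at 17 nt. The printed tag also matches transcripts of 2 other genes, the pseudogenes Cyp2b26-ps and Cyp2b27-ps, and whether those gave any of the reads was not tested.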

How the results depend on the processing

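No paired analysis was possible because DMSO and SC1 have 1 library each. Values were compared with their counting interval, and counts with a range of 1.5 times. Of 72 values under alternatives, 58 stayed within these limits and 14 moved. Among the 58 are all values with tags of other matches left out, which could not move because no read was removed. The 58 also hold the Mir152 5p share, which was 0 under every setting. The count is thus no measure of stability. Scaled to all DMSO reads, which changes only the unit, miR-148a-3p was at 34.4, miR-148b-3p at 77.1 and miR-152-3p at 78.7 per 1000000. With trailing A or T removed, miR-152-3p was at 1032 RPM with an 18 nt share of 1.82%, and that share of miR-148b-3p was 39.2%: tailed reads are then counted. With 1 start only, miR-148b-3p was at 832 RPM (1454 reads) and miR-152-3p at 848 RPM (1481 reads), as the RPM base was then smaller. Tags of 18 and 19 nt together were 46.3% of miR-148b-3p. With tags of 10 reads or more the 5p share of Mir148a was 0%, as its 3 reads were dropped. SC1 reads at 17 nt alone were 245 (Mir148b), 151 (Mir148a) and 79 (Mir152). At 13 to 17 nt, a window chosen after seeing the data, Mir148b had 1332. Values for other length windows count other tags, so they can move for that reason alone. Leaving out tags that match other transcripts removed no read.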
